A study of Mus musculus with 17 samples.

Results

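The genes described here encode the proteins of the cytosolic ribosome. They were chosen by symbol: Rpl or Rps followed by a number, with an optional a or x and an optional final 1, plus Rplp0, Rplp1, Rplp2 and Rpsa. Of the 24594 genes in the count tables, 77 met this rule, 46 of the large (60S) subunit and 31 of the small (40S) subunit. All 77 passed the filter on low counts, which left 13881 genes to test. The rule used no measured value.

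RNA-seq was done on CD8 T cells of the mouse spleen labelled CD8+Thy1.1+, Thy1.1 being a congenic marker. The 17 libraries fall into 4 groups named for the targeted gene: Asxl1 KO (4 libraries), Dnmt3a KO (4), Tet2 KO (4) and, as the control, Rosa KO (5). Asxl1 acts in the deubiquitinase that opposes Polycomb, Dnmt3a adds methyl groups to DNA, and Tet2 oxidises 5-methylcytosine. The sources used here do not give how the genes were targeted, any treatment or time after it, or the age of the mice. All 4 groups share the tissue and the Thy1.1 label. Whether replicates are separate animals is not stated, so the p-values speak only for the spread among these libraries and that spread may be technical.

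The cytosolic ribosome reads messenger RNA on its small subunit and joins amino acids on its large subunit. In mammals most of its proteins are made from short, abundant messengers that start with a run of pyrimidines, the terminal oligopyrimidine (TOP) motif. Through that motif mTOR signalling, partly by way of the binding protein Larp1, sets how well they are translated. T cells enlarge their ribosome pool when they leave the resting state.

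The starts of 6 genes are shown. Of these, 5 have the lowest adjusted p in the Tet2 KO comparison below among members with an entry in the promoter sequences. Rps15a was added from those passing in the Asxl1 KO comparison below. There Rpl27a, which also has an entry, had the same adjusted p and is not shown. Each line runs 5′ to 3′ over 20 bases before and 10 bases from the start annotated by RefSeq on GRCm38.p6, the assembly also called mm10, and capitals mark its longest run of C and T.
Rpl31 (chr1:39367831-39367860, plus strand): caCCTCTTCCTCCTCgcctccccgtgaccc
Rplp0 (chr5:115559447-115559476, plus strand): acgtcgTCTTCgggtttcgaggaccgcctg
Rpl35 (chr2:39005122-39005151, minus strand): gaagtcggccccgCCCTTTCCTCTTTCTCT
Rpl28 (chr7:4792945-4792974, plus strand): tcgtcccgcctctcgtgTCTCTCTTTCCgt
Rpl12 (chr2:32961692-32961721, plus strand): gcgtgggcggagcaggatccgTCTTTTCgg
Rps15a (chr7:118116138-118116167, minus strand): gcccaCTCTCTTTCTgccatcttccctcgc
The longest run covers 17 bases in Rpl35 and 13 in Rpl31, against 7 in Rpl12 and 5 in Rplp0. In Rpl31, Rplp0 and Rps15a the marked run ends before the annotated start, outside the annotated messenger. In Rpl35 and Rpl28 it crosses the start, and in Rpl12 it begins after it. Of the 77 genes, 57 had an entry. An unbroken run of at least 8 C or T on the gene's strand, from 20 bases before the start to 30 from it, was found in 32 of the 57 (56.1%), compared with 5811 of all 27025 genes in the table (21.5%). The motif CGGAAG, on either strand and from 250 bases before the start to 50 from it, was found in 40 of the 57 (70.2%), compared with 18.8% of all genes. These are matches of letters, and no binding or start site was measured.

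Libraries stood apart in ways that bear on these genes. Total counts per library ran from 6625833 to 40701203, with a median of 21642477. The library numbers in the labels fall into 3 separate runs of numbers, which the labels do not call batches. Run 1 holds Asxl1 KO 1, Dnmt3a KO 1 and 2 and Rosa KO 1, run 2 holds Asxl1 KO 2, Dnmt3a KO 3 and 4 and Tet2 KO 1 and 2, and run 3 holds Asxl1 KO 3 and 4, Tet2 KO 3 and 4 and Rosa KO 2 to 5. Run 2 thus has no Rosa KO library and run 3 no Dnmt3a KO library. The messengers of the targeted genes do not separate the groups: Asxl1 had 70.3 to 146 CPM (counts scaled to the size of the library) in Asxl1 KO and 82.1 to 161 in Rosa KO, Dnmt3a 71.7 to 115 in Dnmt3a KO and 27.6 to 103 in Rosa KO, and Tet2 125.1 to 254.3 in Tet2 KO and 138 to 186 in Rosa KO. All 8 CD8 T cell markers had counts in every library, and so did all 18 B cell markers.

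Asxl1 KO 1 differed from the other 16 libraries in the make-up of its ribosomal protein messengers. When each gene was taken as a share of the counts of all 77, Asxl1 KO 1 lay above all other libraries for 27 genes and below all of them for 25. No other library lay outside the range of the rest for more than 18.2% of the genes. Rps21 was at 3.38 times the median share of the other libraries and Rpl34 at 2.39 times, while Rpl30 was at 0.39 and Rpl15 at 0.46 times. The shift was not confined to the ribosome. By CPM rather than by share, 40.3% of 4202 other genes averaging 50 CPM or more had their highest or lowest value in this library. In any other library at most 17.6% did. By share, 67.5% of the 77 genes lay outside the range of the rest in Asxl1 KO 1, and the 2 measures are not alike. The fold changes of ribosomal protein genes in Asxl1 KO over each other group are therefore given with and without it.

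**Figure D1:**
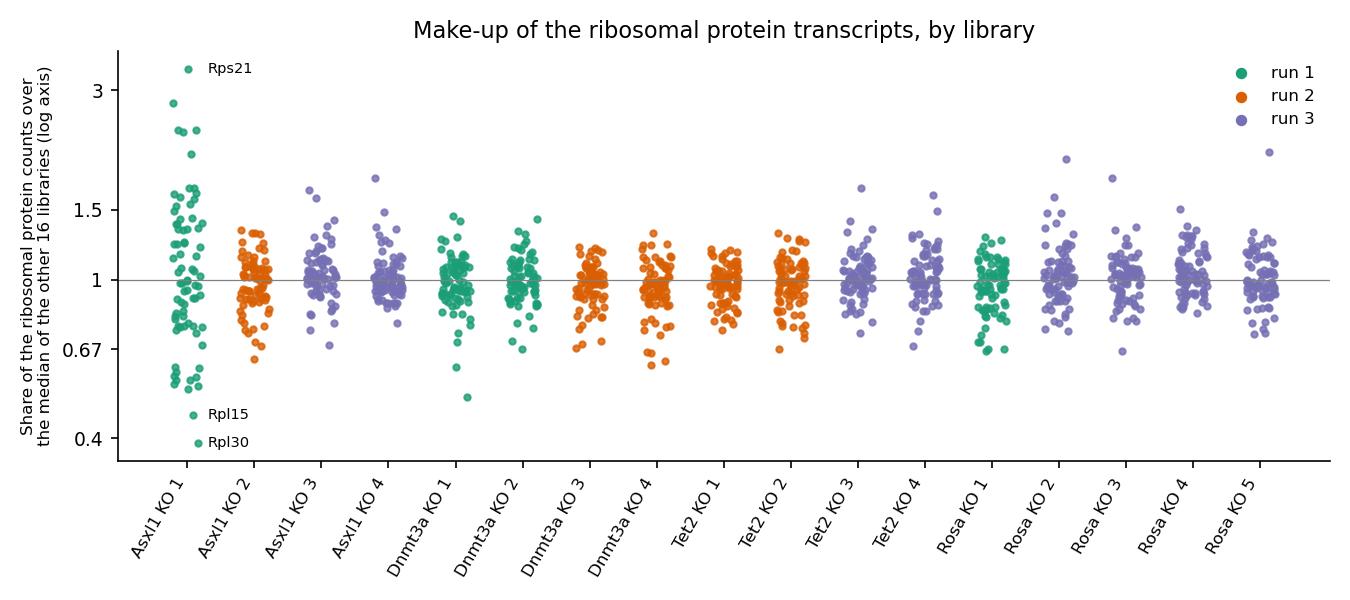
Each point is 1 of 77 ribosomal protein genes, plotted as its share of the ribosomal protein counts of a library over the median share in the other 16 libraries (log axis), by library and coloured by run. Asxl1 KO 1 spreads from 0.39 (Rpl30) to 3.38 (Rps21), with 14 genes over 1.5 times and 12 under 1/1.5 of the median share.

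Together the 77 genes took 6.04, 3.77, 9.72 and 8.37% of the counts in Asxl1 KO 1 to 4. Dnmt3a KO 1 to 4 gave 6.26, 7.23, 3.77 and 4.69%. Tet2 KO 1 to 4 gave 5.44, 4.16, 9.93 and 9.47%. In Rosa KO 1 to 5 they took 6.07, 7.61, 6.89, 6.13 and 5.50%. The 4 highest shares belong to the Asxl1 KO and Tet2 KO libraries of run 3, and the 5 libraries of run 2 all lie below every Rosa KO library, while the run 1 libraries lie inside the Rosa KO range. The widest 95% Wilson interval of these shares, that of Rosa KO 5 at 5.49 to 5.52%, is far narrower than the gaps between libraries and covers counting error only. In bulk RNA, fewer cells with a high ribosomal protein level and less such RNA per cell cannot be told apart.

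**Figure D2:**
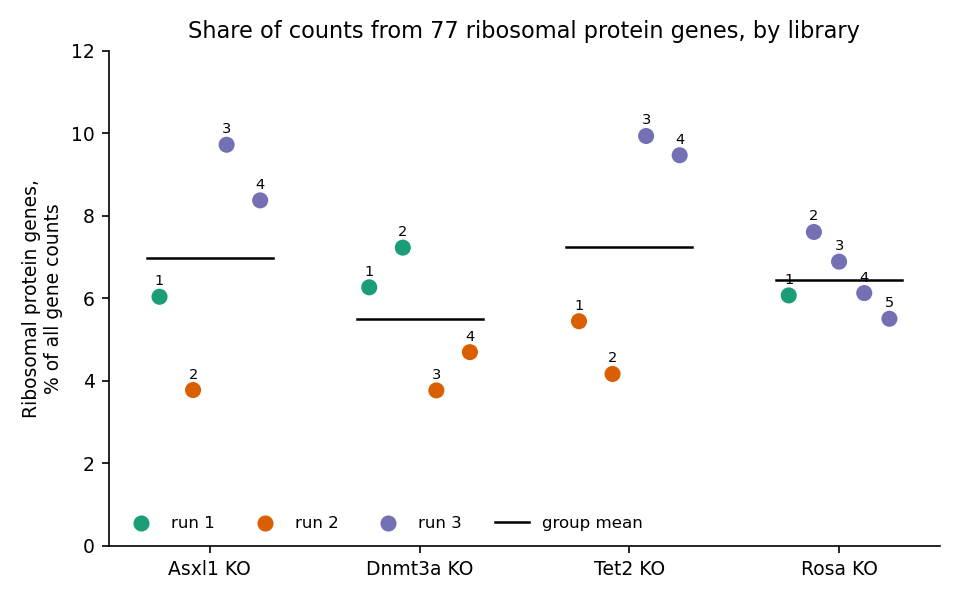
Share of all gene counts that came from the 77 ribosomal protein genes (percent), by group, with 1 point per library labelled by replicate number and coloured by run, and a line at the group mean. The Asxl1 KO and Tet2 KO libraries of run 3 lie at 8.37 to 9.93%, above the 4 Rosa KO libraries of that run at 5.50 to 7.61%, and all libraries of run 2 lie at or below 5.44%.

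The genes moved together. By itself, run explained 66.2% of the variance in log2 CPM of the median ribosomal protein gene, against 25.6% for the median tested gene. Group by itself explained 11.5%, against 19.0%. All 2926 pairs of the 77 genes correlated positively over the 17 libraries, with a median r of 0.88, and with a median r of 0.63 after group and run were removed. These correlations are a description, since the genes share the same libraries, depth and scaling. By CPM per kilobase of transcript, the levels ran from 90.1 for Rpl26 and 141 for Rpl13a to 2701 for Rps24 and 2724 for Rpl32, with a median of 894. Rpl26 has processed copies in the genome that can take its reads, so its level is uncertain. Rps20 and Rps15a are annotated with transcripts of 3706 and 5179 bases, far above the median of 791. Their levels per kilobase are too low if a short form is the one expressed. Rpl22 and Rpl5 follow at 2051 and 2045 bases, with the same limit. The share of the ribosomal protein counts was among the most even for Rpl32 (coefficient of variation 6.09% over the 17 libraries) and Rpl27 (6.68%). It was among the least even for Rps21 (48.8%), which peaks in Asxl1 KO 1, and Rps27 (37.6%), which splits by run. Rps27 took 0.285 to 0.437% of the ribosomal protein counts in run 3 and 0.143 to 0.215% in runs 1 and 2.

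Tet2 KO was compared with Rosa KO first, as the knockout with more of these genes past the test than the other two. With run as a term in the model, 35 of the 77 genes were higher in Tet2 KO and 0 lower at an adjusted p under 0.05 (edgeR quasi-likelihood test, Benjamini-Hochberg over all 13881 genes), where 0.987% of all tested genes were higher and 0.483% lower. The fitted log2 fold changes of all 77 genes were positive, from 0.26 to 0.90 with a median of 0.59, against -0.02 over all tested genes. The 35 were 20 of 46 genes of the large subunit and 15 of 31 of the small one. Only libraries of these 2 groups were left out, 1 at a time, and none of the 35 passed in every such fit. Without Tet2 KO 3 no gene passed, where 0.0838% of all tested genes were higher. Without Tet2 KO 4, 5 passed (0.161% of all tested genes higher), and without Rosa KO 5, 7 (0.333%). Without Rosa KO 4, 9 passed (0.379%), and without Tet2 KO 1, 10 (0.463%). The direction did not change with any Tet2 KO or Rosa KO library left out (medians 0.53 to 0.67).

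In the stalk of the large subunit, which recruits elongation factors, the scaffold protein gene Rplp0 had 1027, 969, 1796 and 1636 CPM in Tet2 KO 1 to 4 and 1213, 1224, 1010, 962 and 747 CPM in Rosa KO 1 to 5. Tet2 KO 3 and 4, of run 3, lie above every Rosa KO library, while Tet2 KO 1 and 2, of run 2, lie inside the Rosa KO range. The fitted log2 fold change was 0.90 ± 0.17 (SE, adjusted p 0.00593). Rpl12, whose protein sits at the base of the stalk, had 708, 556, 1410 and 1374 CPM in Tet2 KO 1 to 4 and 777, 1020, 968, 815 and 733 CPM in Rosa KO 1 to 5. It rose by 0.74 ± 0.16 (adjusted p 0.0156), and again only the run 3 libraries exceed the Rosa KO ones. The other stalk genes, Rplp1 and Rplp2, did not pass, with fitted values of 0.57 ± 0.21 (adjusted p 0.211) and 0.49 ± 0.16 (adjusted p 0.137).

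Among other large subunit genes, Rpl29 had 333, 305, 680 and 607 CPM in Tet2 KO 1 to 4 and 330, 447, 373, 389 and 327 CPM in Rosa KO 1 to 5. Its rise of 0.86 ± 0.16 had the lowest adjusted p of the 77 (0.00434, together with Rps20). Rpl35, a protein at the exit of the peptide tunnel, had 163, 139, 398 and 411 CPM in Tet2 KO 1 to 4 and 158, 275, 199, 263 and 198 CPM in Rosa KO 1 to 5. In all of these the libraries of run 3 are high and those of run 2 are within or below the Rosa KO range. Rpl35 rose by 0.90 ± 0.18 (adjusted p 0.00864), Rpl31 by 0.79 ± 0.15 (adjusted p 0.00538) and Rpl28 by 0.81 ± 0.16 (adjusted p 0.00877). Rpl10, which joins the subunit last in its assembly, rose by 0.69 (adjusted p 0.0305), and Rpl41, the smallest ribosomal protein, by 0.67 (adjusted p 0.0283). Rpl10a, Rpl24, Rpl8, Rpl17 and Rpl7 rose by 0.58 to 0.75 (adjusted p 0.0212 to 0.0305).

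The lowest fitted values belonged to Rpl14 (0.26 ± 0.15), Rpl3 (0.30 ± 0.19), Rpl22 (0.31 ± 0.15) and Rpl5 (0.39 ± 0.14), none of which passed. Rpl3 lies close to the site where peptide bonds form. Rpl22, without which alpha beta T cells fail to develop in mice, had 346, 268, 829.3 and 722 CPM in Tet2 KO 1 to 4 and 491, 760, 740, 569 and 580 CPM in Rosa KO 1 to 5, so that the groups overlap within run 3 as well. Rpl5 and Rpl11, which together with the 5S ribosomal RNA can bind and restrain Mdm2, did not pass. The adjusted p of Rpl5 was 0.212, and that of Rpl11, at 0.57 ± 0.15, was 0.0541.

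In the small subunit, Rps20 had 452, 384, 1294 and 1204 CPM in Tet2 KO 1 to 4 and 646, 870, 828, 718 and 611 CPM in Rosa KO 1 to 5, and rose by 0.75 ± 0.14 (adjusted p 0.00434). Of the 35 genes that passed, 34 have 2 of 4 Tet2 KO libraries above the Rosa KO mean. Rps28 rose by 0.88 ± 0.21, Rps26 by 0.84 ± 0.19 and Rps2 by 0.79 ± 0.18 (adjusted p 0.0305 for Rps28 and 0.0244 for the others), and Rps15 by 0.73 (adjusted p 0.0227). Rpsa rose by 0.72 and Rps3, at the entry of the messenger channel, by 0.61 (adjusted p 0.0321 each). Rps19, the gene most often mutated in human Diamond-Blackfan anaemia, rose by 0.72 (adjusted p 0.0344). Rps6, the target of the S6 kinases, and Rps4x had values of 0.57 and 0.59 and did not pass (adjusted p 0.0753 and 0.0758). Rps14, whose loss of 1 copy marks the human 5q- syndrome, and Rps27 did not pass either, at 0.40 ± 0.22 and 0.44 ± 0.19.

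Within run 3, where both groups have libraries, Tet2 KO 3 and 4 lay above all 4 Rosa KO libraries for 70 of the 77 genes, where 13.5% of all tested genes did so, and below all of them for 0 (11.6% of all tested genes). The ratios of the run 3 means ran from 1.06 to 1.83 with a median of 1.53. The 7 genes whose libraries overlap are Rpl22, Rpl3, Rpl34, Rps14, Rps21, Rps23 and Rps27. A fit within this run called 49 genes higher, where it called 1.8% of all tested genes higher. Malat1, a long nuclear RNA, had 6128 and 7807 CPM in Tet2 KO 3 and 4, 6648 and 6262 CPM in Asxl1 KO 3 and 4, and 10140 to 15140 CPM in Rosa KO 2 to 5, so that both knockouts lie below all Rosa KO libraries of the run. Genes with a count numbered 14421 and 15328 in Tet2 KO 3 and 4, 16862 and 17940 in Asxl1 KO 3 and 4, and 13628 to 14559 in Rosa KO 2 to 5. What part these library differences have in the rise was not tested. Without run as a term 0 genes passed, where 0.0504% of all tested genes were higher, and the median was 0.17. With the replicate numbers as a block 0 passed, where 0.137% of all tested genes were higher, with a median of 0.54.

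**Figure D3:**
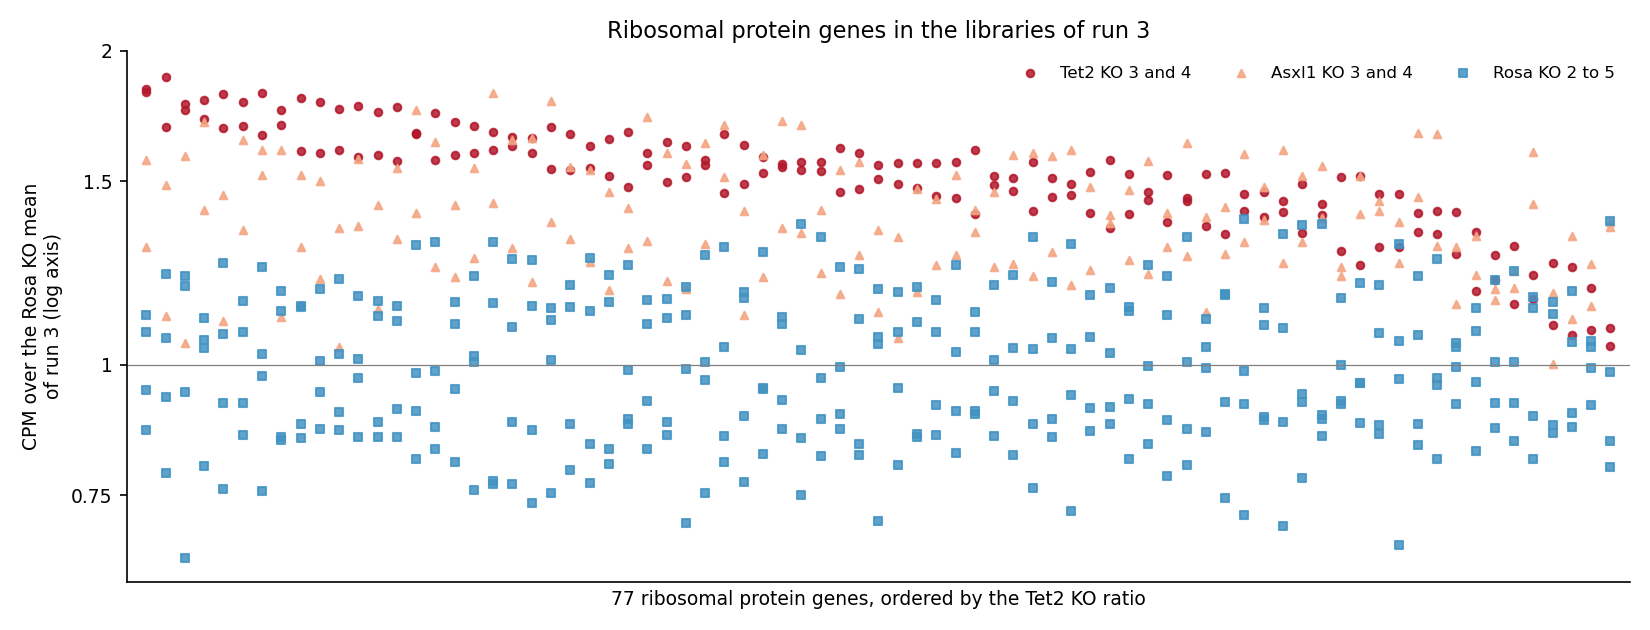
CPM in the libraries of run 3 over the mean of the 4 Rosa KO libraries of that run (log axis) for the 77 ribosomal protein genes, ordered by the Tet2 KO ratio, with 1 point per library. Both Tet2 KO libraries lie above all Rosa KO squares for 70 genes and both Asxl1 KO libraries for 45.

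Other short transcripts were higher in the same comparison. Among genes that are no members, those with a transcript under 1000 bases (1093 genes) had a median log2 fold change of 0.35 in Tet2 KO over Rosa KO and 3.2% of them passed upward, while those of 4000 bases or more had a median of -0.15. When the trend of each library with transcript length, fitted on the other genes, was taken out, the median of the 77 genes became 0.19 and 3 passed: Rplp0 at 0.65 ± 0.15 (adjusted p 0.0328), Rps15a at 0.72 ± 0.16 (adjusted p 0.0261) and Rps20 at 0.79 ± 0.14 (adjusted p 0.00373). Of all tested genes, 0.267% were higher in that fit. Rps15a and Rps20 are the pair with the longest annotated transcripts, so taking out the trend hardly shifts them. The difference between short and long genes was -0.74 to -1.14 log2 units in the Tet2 KO and Asxl1 KO libraries of run 3 and -1.12 to -1.44 in its Rosa KO libraries. What part transcript length has in the rise was not tested. The summed CPM of the 18 B cell markers was 207 to 3359 in Tet2 KO and 662 to 3757 in Rosa KO. With their mean as a covariate the number passing was again 35, where 1.05% of all tested genes were higher.

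**Figure D4:**
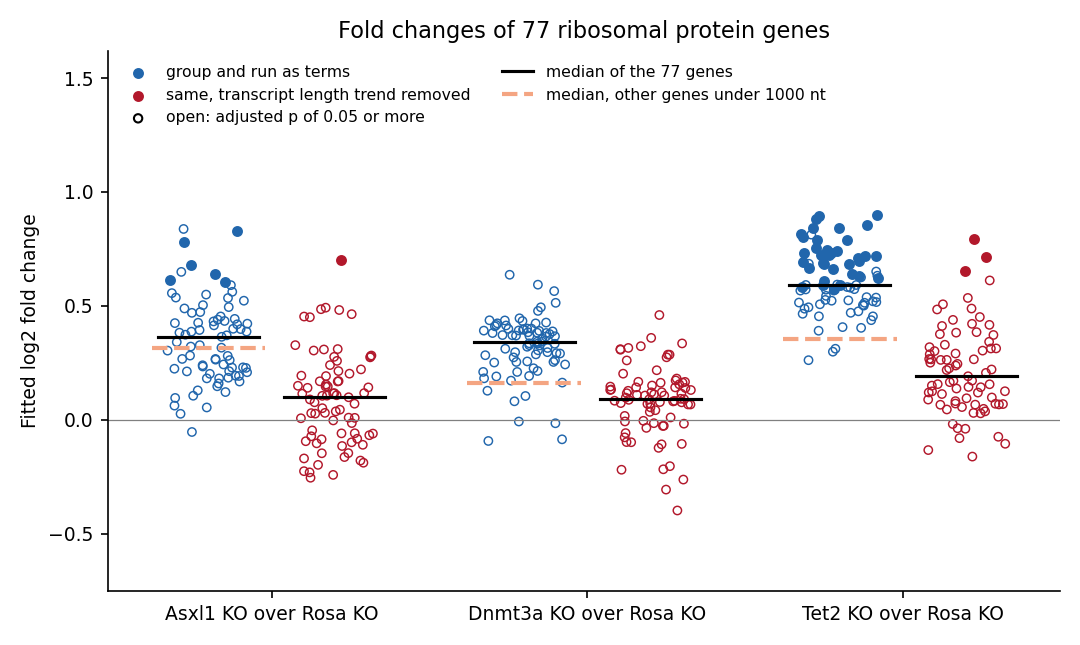
Fitted log2 fold changes of the 77 ribosomal protein genes over Rosa KO for each knockout, with group and run as terms (blue) and with the transcript length trend removed as well (red). Filled points have an adjusted p under 0.05, black lines are medians of the 77 genes, and dashed lines are medians of other genes under 1000 bases. The Tet2 KO median is 0.59 with 35 filled points, and 0.19 with 3 after the length trend is removed.

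**Figure D5:**
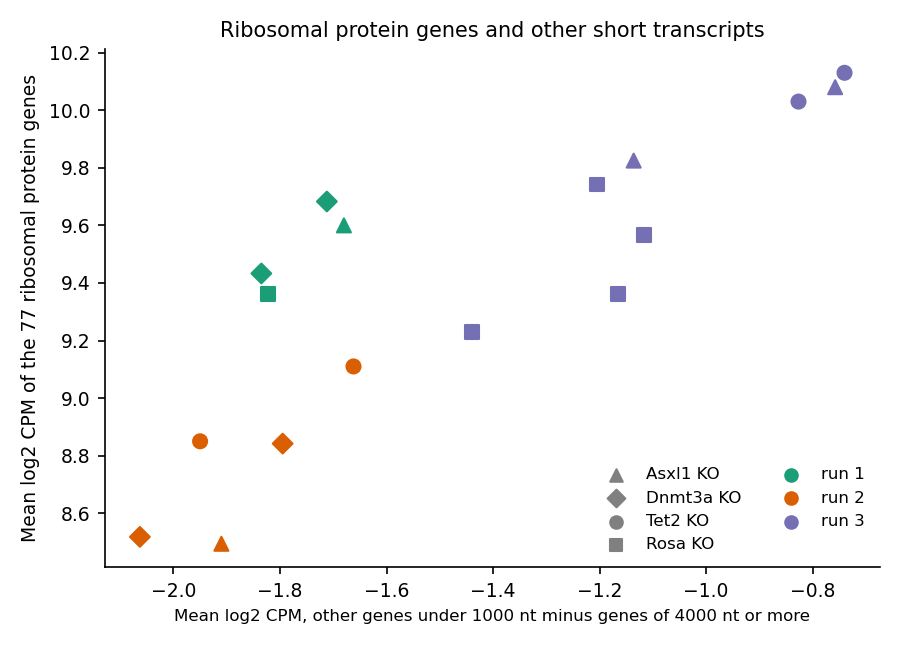
Mean log2 CPM of the 77 ribosomal protein genes against the mean log2 CPM of other genes under 1000 bases minus that of genes of 4000 bases or more, with 1 point per library, shaped by group and coloured by run. Run 3 lies to the right at -1.44 to -0.74, and run 2 holds the lowest levels of the 77 genes.

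Asxl1 KO was compared with Rosa KO in the same model. Of the 77 genes, 6 were higher in Asxl1 KO and 0 lower, where 0.814% of all tested genes were higher and 0.821% lower: Rpl12, Rps15a, Rpl27a, Rps28, Rps27a and Rpl35a. The median log2 fold change was 0.36 and 76 of 77 were positive, the exception being Rpl3 (-0.05 ± 0.17). Without Asxl1 KO 1 the median was 0.37 with 77 positive and Rpl3 at 0.15. Rps15a alone passed (0.66, adjusted p 0.0142), where 0.654% of all tested genes were higher. All 3 knockouts share the same Rosa KO libraries, so their values are not independent of each other.

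The CPM of Rpl12 were 1538, 474, 1529 and 1162 in Asxl1 KO 1 to 4, and the Rosa KO values stand above. It rose by 0.64 ± 0.15 (adjusted p 0.0256), or 0.54 without Asxl1 KO 1 (adjusted p 0.0583), and the libraries of runs 1 and 3 lie above all Rosa KO libraries while that of run 2 lies below. Rps27a, made as a fusion with ubiquitin, had 864, 167, 618 and 568 CPM in Asxl1 KO 1 to 4 and 242, 488, 392, 392 and 358 CPM in Rosa KO 1 to 5. Its highest value is that of Asxl1 KO 1, and the rise of 0.78 ± 0.19 (adjusted p 0.0337) was 0.53 without that library (adjusted p 0.0719). Rps28 had 659, 114, 479 and 376 CPM in Asxl1 KO 1 to 4 and 223, 345, 202, 302 and 203 CPM in Rosa KO 1 to 5, and rose by 0.83 ± 0.20 (adjusted p 0.0303), or 0.63 without Asxl1 KO 1 (adjusted p 0.0773). Rps15a had 1704, 882, 2036 and 1813 CPM in Asxl1 KO 1 to 4 and 1316, 1556, 1246, 968 and 1025 CPM in Rosa KO 1 to 5, and rose by 0.61 ± 0.14 (adjusted p 0.0263). Rpl27a and Rpl35a rose by 0.68 and 0.61 (adjusted p 0.0263 and 0.0442), and neither passed without Asxl1 KO 1, at 0.55 and 0.49 (adjusted p 0.0683 and 0.0999). Rps21 had the highest fitted value of the 77, 0.84 ± 0.23, and did not pass (adjusted p 0.0643). It was 0.46 without Asxl1 KO 1.

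In the stalk, Rplp0 had a value of 0.44 ± 0.16, Rplp1 0.24 ± 0.19 and Rplp2 0.26 ± 0.14, and none passed. Without Asxl1 KO 1 these were 0.50, 0.35 and 0.34. Of the other large subunit genes, Rpl41 had 0.47, Rpl11 0.40, Rpl22 0.26, Rpl5 0.18, Rpl10 0.06, Rpl14 0.05 and Rpl15 0.03. Without Asxl1 KO 1, Rpl41 had 0.38, Rpl11 0.46, Rpl22 0.16, Rpl5 0.24, Rpl10 0.16, Rpl14 0.10 and Rpl15 0.23. Of the small subunit genes, Rps19 had 0.43, Rps3 0.39, Rps27 0.23, Rps6 0.23, Rpsa 0.22, Rps14 0.18 and Rps4x 0.15. Without Asxl1 KO 1, Rps19 had 0.27, Rps3 0.40, Rps27 0.33, Rps6 0.39, Rpsa 0.29, Rps14 0.26 and Rps4x 0.29. None of these genes passed, with adjusted p of 0.104 or more with Asxl1 KO 1 and 0.114 or more without it.

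Within run 3, Asxl1 KO 3 and 4 lay above all 4 Rosa KO libraries for 45 of the 77 genes, where 14% of all tested genes did so, and below all for 0 (12% of all tested genes), with ratios of 1.09 to 1.63 and a median of 1.40. A fit within run 3 called 20 genes higher, against 1.77% of all tested genes, with a median of 0.48. Within run 1, with 1 Asxl1 KO and 1 Rosa KO library and 1 residual degree of freedom, 15 genes were higher and 4 lower, against 2.64% and 1.8% of all tested genes. Leaving out Asxl1 KO 3 or Rosa KO 5 left 0 calls, where 0.204% and 0.398% of all tested genes were higher. Leaving out Rosa KO 1 or Rosa KO 4 left 1 (0.804% and 0.54%), and leaving out Rosa KO 3 left 3 (0.582%). Leaving out Rosa KO 2 gave 11 (0.645%) and leaving out Asxl1 KO 2 gave 14 (1.45%). Without run as a term 0 passed (0.0504% of all tested genes higher) with a median of 0.16. With the replicate block 0 passed (0.137%) with a median of 0.30, and with the length trend removed 1 passed (0.454%) with a median of 0.10. Other genes under 1000 bases had a median of 0.32. All 18 B cell markers had negative fitted values in this comparison and their summed CPM was 797 to 1713 in Asxl1 KO and 662 to 3757 in Rosa KO. With their mean as a covariate 5 genes passed, where 0.511% of all tested genes were higher. All 8 CD8 T cell markers had positive values, with a median of 0.57 and 4 passing (Cd2, Cd3d, Cd3g and Lat), and their summed CPM was 4494 to 11880 in Asxl1 KO and 4768 to 7395 in Rosa KO. All 4 natural killer cell markers had negative values, with a median of -1.83, and Klrb1c was lower (-2.62 ± 0.38, adjusted p 0.000677). The mean log2 CPM of these 4 was 2.13 to 3.07 in Asxl1 KO and 3.55 to 4.53 in Rosa KO. They were also negative in Tet2 KO over Rosa KO, with a median of -1.05 and Klrb1c lower (-2.38 ± 0.43, adjusted p 0.00588). In Dnmt3a KO over Rosa KO, 1 of the 4 was positive and the median was -0.47. Klrb1c was lower there as well (-3.65 ± 0.46, adjusted p 0.000421). The part of these cell type markers in the ribosomal protein values was not tested, the B cell covariate aside.

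Dnmt3a KO was compared with Rosa KO with the weakest overlap of runs, since Rosa KO 1 is the only Rosa KO library in a run with Dnmt3a KO. None of the 77 genes passed in edgeR, where 0.036% of all tested genes were higher and 0.18% lower. There were 27 at an unadjusted p under 0.05, which 8.03% of all tested genes had. DESeq2 also gave 0, where it called 57 of 13881 genes higher and 93 lower. The median fitted log2 fold change was 0.34, with 73 of 77 positive. Rplp0 had the highest value, 0.64 ± 0.19 (adjusted p 0.241), with 1597, 1893, 590 and 944 CPM in Dnmt3a KO 1 to 4 against the Rosa KO values given above. Its run 1 libraries exceed all Rosa KO libraries, while 1 of its run 2 libraries is below all of them and the other is below 4 of the 5. Without run as a term the median turned to -0.25, and within run 1 it was 0.21.

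Rpl10, Rps2 and Rpl10a followed at 0.59, 0.57 and 0.51, and Rpl22 (-0.09), Rps21 (-0.09) and Rpl13a (-0.02) were lowest. In the stalk, Rplp1 had 0.31 and Rplp2 0.23. Among the other large subunit genes, Rpl12 had 0.41, Rpl3 0.27, Rpl11 0.24, Rpl5 0.21 and Rpl41 0.19. In the small subunit, Rps19 had 0.44, Rpsa 0.41, Rps3 0.40, Rps28 0.38, Rps6 0.38, Rps4x 0.36, Rps27 0.31 and Rps14 0.25. Every one of these had an adjusted p of 0.241 or more.

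The knockouts were also set against each other. None of the 77 genes passed in any of the 3 pairs in the edgeR fit of all 17 libraries. In Asxl1 KO over Dnmt3a KO, where 0.353% of all tested genes passed in either direction, 7 genes had an unadjusted p under 0.05. Those 7 are 9.09% of the 77, against 11% of all tested genes. DESeq2 called 1 of the 77 higher, where it called 140 of 13881 genes higher and 80 lower. The median was -0.02, or 0.05 without Asxl1 KO 1. Rps21 (0.92), Rps27a (0.70) and Rpl13a (0.52) were among the highest there, and Rpl10 (-0.53), Rpl15 (-0.37), Rpl3 (-0.33) and Rpl10a (-0.30) lowest. Without Asxl1 KO 1, Rps21 had 0.31, Rps27a 0.26, Rpl13a 0.37, Rpl10 -0.38, Rpl15 -0.07, Rpl3 -0.0057 and Rpl10a -0.13. Within run 1, where Asxl1 KO 1 is the only Asxl1 KO library, 9 genes were higher and 10 lower, against 5.42% and 4.08% of all tested genes. In Asxl1 KO over Tet2 KO, where 0.562% of all genes passed, 24 had an unadjusted p under 0.05 (7.21% of all tested genes). DESeq2 called 1 lower, where it called 140 of 13881 genes higher and 37 lower. The median was -0.28, or -0.23 without Asxl1 KO 1. Rpl10 (-0.63 ± 0.16, adjusted p 0.0923), Rpl15 (-0.62), Rpl10a (-0.52) and Rpl28 (-0.51) were lowest, and Rps21 (0.43), Rps27a (0.10) and Rpl34 (0.08) highest. Without Asxl1 KO 1, Rps27a turned to -0.13 and Rpl34 to -0.22, Rps21 had 0.09, and Rpl10, Rpl15, Rpl10a and Rpl28 had -0.54, -0.46, -0.42 and -0.51. In Dnmt3a KO over Tet2 KO, where 0.0937% of all genes passed, 17 had an unadjusted p under 0.05 (5.6% of all tested genes). DESeq2 called 0, where it called 45 of 13881 genes higher and 28 lower. The median was -0.28 with 0 of 77 positive. Rps27a (-0.60), Rpl13a (-0.55) and Rps29 (-0.52) were among the lowest, and Rpl3 (-0.03), Rps13 (-0.07), Rpl30 (-0.09) and Rpl10 (-0.10) highest.

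Other genes of the translation pathway were examined as lists in the same fits. Of 8 tested ribosomal proteins outside the symbol rule, 2 were higher in Tet2 KO, Rack1 (0.72, adjusted p 0.0295), a scaffold on the small subunit, and Rpl22l1 (0.82, adjusted p 0.0129), the paralog of Rpl22, with list medians of 0.40 in Asxl1 KO, 0.34 in Dnmt3a KO and 0.65 in Tet2 KO, each over Rosa KO. Of 20 elongation factors and other TOP messengers, Naca (0.76, adjusted p 0.004) and Vim (0.81, adjusted p 0.000904) were higher in Tet2 KO and 0 passed in Asxl1 KO or Dnmt3a KO, with medians of 0.07 in Asxl1 KO, 0.18 in Dnmt3a KO and 0.32 in Tet2 KO. None of 40 ribosome biogenesis genes and none of 19 tested genes that control ribosomal protein synthesis passed in any of these 3 comparisons, with medians of 0.13, 0.18 and 0.17 for biogenesis and -0.01, 0.07 and -0.17 for control, in the order Asxl1, Dnmt3a and Tet2 knockout.

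The mitochondrial ribosome and the respiratory chain had positive medians too. For the 77 mitochondrial ribosomal protein genes these were 0.37 in Asxl1 KO, 0.16 in Dnmt3a KO and 0.41 in Tet2 KO over Rosa KO, and Mrpl33 alone passed, in Tet2 KO (0.88, adjusted p 0.0295). For 72 tested respiratory chain genes they were 0.50 in Asxl1 KO, 0.22 in Dnmt3a KO and 0.55 in Tet2 KO, with 6 higher in Asxl1 KO, 0 in Dnmt3a KO and 8 in Tet2 KO. Atp5g3, of the ATP synthase, rose by 0.79 in Asxl1 KO (adjusted p 0.011) and by 0.98 in Tet2 KO (adjusted p 0.00201).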

How the data were processed

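Each library has its own table, in which the authors deposited raw counts by gene. Per the submitters' processing notes, STAR 2.5.3a, DESeq2 1.26.0 and build mm10 were used in roles not stated. The counting tool, the annotation and whether strand was used were not stated either, so reads of paralogs, processed copies and overlapping genes may be split or shared. Although the molecule field names genomic DNA, the protocols describe total RNA and a stranded kit, and the tables were taken as RNA-seq.

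All 17 libraries entered 1 edgeR model (version 4.0.16, R 4.3.3; robust quasi-likelihood F test after TMM scaling) with terms for group and run and 11 residual degrees of freedom. Genes were kept by filterByExpr (minimum count 10, total 15), p-values were adjusted by Benjamini-Hochberg over 13881 genes, and the threshold was 0.05. CPM include the TMM factors, and their log2 values use a prior count of 2. DESeq2 1.42.0, other scalings, within-run fits, left-out libraries, a length correction (median RefSeq-linked transcript length), a B cell covariate and the replicate block were alternatives. Single libraries were left out only for comparisons that hold their group. The edgeR step was tested on simulated data. Between libraries of the same group the chi-square per degree of freedom was 17 to 226 over 28 pairs, so none was counted as a duplicate.

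The 77 genes and the lists were chosen with earlier results of these data known. Named in each comparison are passing genes (at most 20, by adjusted p), the 4 highest and 4 lowest values, and, against Rosa KO, 18 genes chosen by role; extremes of level and evenness are named for those measures only. Some genes that this rule names are not reported here. Genes named for levels per kilobase, for Asxl1 KO 1, for overlap within run 3 and for the length correction were chosen after their values were seen.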

Additional observations from a re-analysis of the deposited data

Results flagged for a closer look

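Of 180 sets of 4 or 5 libraries examined, 2 held a library far from the others by Dixon's criterion, which chance meets in about 1 set in 20. The ratio of large to small subunit counts was 1.244 in Asxl1 KO 1, against 1.373 to 1.395 in Asxl1 KO 2 to 4. Rpl7 had 357.2 CPM in Asxl1 KO 2, the Asxl1 KO library of run 2, against 919.1 to 945 CPM in the other 3 Asxl1 KO libraries.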

How the results depend on the processing

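Counts of genes passing depended on the setting far more than the direction of the medians did. In Tet2 KO over Rosa KO, 35 became 60 with no filter on low counts, where 1.18% of all tested genes were higher. The number was 14 with only the 2 groups compared (0.726%) and 15 without run 2 (0.753%). With the length trend removed it was 3 (0.267%, median 0.19), and 6 with that trend removed within run 3 (0.792%, median 0.13). It was 0 without run as a term (0.0504%, median 0.17) or without Tet2 KO 3 and 4 (0.0265%, median 0.68, all 77 positive). In that last fit Tet2 KO and Rosa KO share no run, so its values rest on run terms set by Asxl1 KO and Dnmt3a KO libraries. Mean log2 CPM of the 77 genes was 9.11 and 8.85 in Tet2 KO 1 and 2, and 9.23 to 9.74 in Rosa KO. In Asxl1 KO over Rosa KO, 6 became 20 with no filter (1.42% of all tested genes higher) and 13 with DESeq2 (2.35%). With only the 2 groups compared it was 3 (0.553%). Within run 3 the number was 20 (1.77%), and without run 2 it was 15 (1.28%). It was 1 with the length trend removed (0.454%, median 0.099) or with it removed within run 3 (1.04%, median 0.10). It was 0 without run as a term (0.0504%, median 0.16) or without Asxl1 KO 3 and 4 (0.23%, median 0.10). Within run 1 the median was 0.18. In Dnmt3a KO over Rosa KO, 2 genes passed with no filter (0.231% of all tested genes higher). The median was 0.092 with the length trend removed and -0.25 without run as a term. In Asxl1 KO over Dnmt3a KO, 2 genes passed with no filter, 1 with DESeq2, 19 within run 1 and 2 without run 2, and the median was 0.40 without run as a term. The genes passing there with no filter, with DESeq2 and without run 2 were all higher. With no filter, 161 of 21195 tested genes were higher and 148 lower. DESeq2 called 140 of 13881 higher and 80 lower. Without run 2, 204 of 14475 were higher and 204 lower. Within run 1, Asxl1 KO 1 is the only Asxl1 KO library, and the shares of all tested genes are given above. In Asxl1 KO over Tet2 KO, 2 were lower with no filter, where 78 of 21195 genes were lower. DESeq2 called 1 lower, where it called 37 of 13881 genes lower. The median was -0.024 without run as a term and -0.039 with the length trend removed within run 3. Libraries of the 2 groups compared were left out 1 at a time. This gave 0 to 14 passing genes in Asxl1 KO over Rosa KO (0.204 to 1.45% of all tested genes higher). It gave 0 to 36 in Tet2 KO over Rosa KO (0.0838 to 0.935%) and 0 to 2 in Asxl1 KO over Dnmt3a KO (0.056 to 1.09%). In Asxl1 KO over Tet2 KO it gave 0 to 1, which was lower, where 6 to 21 of all tested genes were lower. Fits without Tet2 KO 3 and 4, without Asxl1 KO 3 and 4, without run 2, and with the length trend removed within run 3 were chosen after seeing the data. The causes were not tested. RLE scaling, TMM without these genes, added pseudogene rows and the B cell covariate left each count within 1.5 times. The summed level per group moved by less than its SD under the 2 other CPM scalings.

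The replicate numbers did not pair the libraries: the correlation of same-numbered deviations was over 0.1 in few pairs, and not for every number in any comparison. With the replicate block 0 genes passed in Tet2 KO over Rosa KO and 0 in Asxl1 KO over Rosa KO, where 0.137% of all tested genes were higher in each. Values that turned sign under the block were -0.029 for Rpl15 in Asxl1 KO over Rosa KO, 0.078 for Rpl22 in Dnmt3a KO over Rosa KO, 0.070 for Rpl10, 0.086 for Rpl30, 0.014 for Rps13 and 0.22 for Rpl3 in Dnmt3a KO over Tet2 KO.

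Of 2267 values of single genes under other settings, 1813 kept their direction and side of the threshold, 272 no longer passed, 46 newly passed and the rest turned sign, as follows. Without run as a term, log2 fold changes were -0.19 for Rpl10, -0.018 for Rps4x, -0.011 for Rps14, -0.11 for Rps27, -0.17 for Rpl15 and -0.12 for Rpl14 in Asxl1 KO over Rosa KO, -0.93 for Rplp1, -0.23 for Rplp2, -0.27 for Rpsa, -0.034 for Rpl3, -0.11 for Rpl5, -0.25 for Rpl11, -0.30 for Rpl10, -0.12 for Rpl12, -0.42 for Rpl41, -0.0043 for Rps3, -0.11 for Rps4x, -0.53 for Rps14, -0.16 for Rps19, -1.12 for Rps27, -0.14 for Rps28, -0.43 for Rpl10a and -0.25 for Rps2 in Dnmt3a KO over Rosa KO, -0.21 for Rpl22, -0.16 for Rps14, -0.054 for Rps27 and -0.16 for Rpl14 in Tet2 KO over Rosa KO, 0.11 for Rpl10, 0.22 for Rpl15 and 0.40 for Rpl10a in Asxl1 KO over Dnmt3a KO. Within run 1, log2 fold changes were -0.43 for Rplp1, -0.20 for Rplp2, -0.23 for Rpsa, -0.067 for Rpl5, -0.43 for Rpl10, -0.56 for Rps4x, -0.47 for Rps6, -0.034 for Rps14, -0.23 for Rps27, -0.92 for Rpl15 and -0.20 for Rpl14 in Asxl1 KO over Rosa KO, -0.17 for Rplp1, -0.059 for Rplp2, 0.15 for Rpl22 and 0.14 for Rps21 in Dnmt3a KO over Rosa KO. Within run 2, log2 fold changes were -0.10 for Rpl13a and -0.00015 for Rps21 in Asxl1 KO over Dnmt3a KO, -0.50 for Rpl34, -0.36 for Rps27a and -0.33 for Rps21 in Asxl1 KO over Tet2 KO, 0.048 for Rps13 in Dnmt3a KO over Tet2 KO. Within run 3, log2 fold changes were 0.28 for Rpl3 in Asxl1 KO over Rosa KO, -0.017 for Rpl34 in Asxl1 KO over Tet2 KO. With the B cell covariate, log2 fold changes were -0.026 for Rpl15 in Asxl1 KO over Rosa KO, 0.071 for Rpl13a in Dnmt3a KO over Rosa KO, 0.045 for Rpl3 in Dnmt3a KO over Tet2 KO. With the length trend removed, log2 fold changes were -0.11 for Rplp1, -0.23 for Rpl10, -0.10 for Rps4x, -0.046 for Rps6, -0.15 for Rps14, -0.15 for Rps27, -0.060 for Rpl15 and -0.19 for Rpl14 in Asxl1 KO over Rosa KO, -0.0072 for Rplp2, -0.015 for Rpl11, -0.098 for Rpl41 and -0.026 for Rps14 in Dnmt3a KO over Rosa KO, -0.080 for Rps14, -0.13 for Rps27 and -0.11 for Rpl14 in Tet2 KO over Rosa KO, 0.072 for Rpl10, 0.14 for Rpl30, 0.15 for Rps13 and 0.062 for Rpl3 in Dnmt3a KO over Tet2 KO. With the length trend removed within run 3, log2 fold changes were 0.029 for Rpl3, -0.13 for Rpl10, -0.025 for Rpl22, -0.045 for Rpl41, -0.095 for Rps19, -0.074 for Rps27 and -0.079 for Rpl14 in Asxl1 KO over Rosa KO, -0.060 for Rpl3, -0.44 for Rps14, -0.19 for Rps27 and -0.21 for Rpl14 in Tet2 KO over Rosa KO. With only the 2 groups compared, log2 fold changes were -0.17 for Rplp1, -0.060 for Rplp2, 0.14 for Rpl22 and 0.14 for Rps21 in Dnmt3a KO over Rosa KO, -0.22 for Rpl34 and -0.12 for Rps27a in Asxl1 KO over Tet2 KO, 0.054 for Rps13 in Dnmt3a KO over Tet2 KO. Without Asxl1 KO 3 and 4, log2 fold changes were -0.28 for Rplp1, -0.035 for Rplp2, -0.21 for Rpsa, -0.093 for Rpl5, -0.20 for Rpl10, -0.25 for Rps4x, -0.11 for Rps6, -0.42 for Rps14, -0.42 for Rpl15 and -0.29 for Rpl14 in Asxl1 KO over Rosa KO. Without Tet2 KO 3 and 4, log2 fold changes were -0.064 for Rpl34 and -0.13 for Rps27a in Asxl1 KO over Tet2 KO. Without run 2, log2 fold changes were 0.099 for Rpl30 and 0.39 for Rpl3 in Dnmt3a KO over Tet2 KO, 2 groups that share no other run. Leaving out 1 library at a time gave ranges of -0.25 to 0.15 for Rpl3 in Asxl1 KO over Rosa KO, -0.16 to 0.24 for Rpl15 in Asxl1 KO over Rosa KO, -0.093 to 0.19 for Rpl10 in Asxl1 KO over Rosa KO, -0.056 to 0.12 for Rpl14 in Asxl1 KO over Rosa KO, -0.23 to 0.21 for Rpl13a in Dnmt3a KO over Rosa KO, -0.40 to 0.064 for Rps21 in Dnmt3a KO over Rosa KO, -0.22 (without Asxl1 KO 1) to 0.35 for Rpl34 in Asxl1 KO over Tet2 KO, -0.13 (without Asxl1 KO 1) to 0.30 for Rps27a in Asxl1 KO over Tet2 KO, -0.16 to 0.019 for Rps13 in Dnmt3a KO over Tet2 KO, -0.14 to 0.025 for Rpl30 in Dnmt3a KO over Tet2 KO, -0.099 to 0.14 for Rpl3 in Dnmt3a KO over Tet2 KO, -0.21 to 0.053 for Rpl10 in Dnmt3a KO over Tet2 KO.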
